A study of Mus musculus with 4 samples.

Results

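Intercalated cells of the mouse kidney were picked out of 4 single-cell RNA sequencing libraries by their marker transcripts. A barcode was taken when it held at least 300 genes and at most 50% of its unique molecular identifiers (UMIs, tags that mark single captured transcripts) came from mitochondrial genes. The members were chosen by measured UMIs of these genes alone. A barcode also had to carry at least 2 UMIs of Atp6v1g3 and 1 of Atp6v0d2, both subunits of the vacuolar proton pump (V-ATPase). Barcodes with more than 2 UMIs of Aqp2 (the principal cell water channel), 1 of Slc12a3 (the sodium chloride cotransporter of the distal convoluted tubule) or 10 of Slc34a1 (a proximal tubule phosphate transporter) were left out. The rule gave 536 cells, which was 1.30% of the 41076 barcodes within the first pair of limits. Cells with Slc4a1 UMIs and none of Slc26a4 were called type A (184 cells), and the reverse type B (327 cells). A further 6 cells held both exchangers and 19 held neither.

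The mice were C57BL/6J animals 10 weeks old, and each library pooled the kidneys of male and female mice. Treated mice received a single intraperitoneal dose of 10 µg recombinant human FGF23, and kidneys were collected 1, 4 or 12 h later. The baseline library is labelled 0 h with a dose of 0 µg. The name of its deposited matrix refers to saline and 1 h, and the labels leave unclear whether vehicle was given. All 4 preparations went through enzymatic dissociation, lysis of red cells and removal of dead cells by Annexin V. Each time had 1 library, so time points have no replicate check and no test across them was possible. Wherever a test is given, it compares classes of cells taken from the same 4 libraries, which come from different mice and different times.

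Intercalated cells sit among the principal cells of the connecting tubule and collecting duct and are rich in mitochondria. Type A cells secrete acid through an apical V-ATPase and return bicarbonate to the blood through the basolateral anion exchanger AE1, the product of Slc4a1. Type B cells secrete bicarbonate into the urine through pendrin, the product of Slc26a4. The forkhead factor Foxi1 is required for the identity of both types. FGF23 is a phosphate-regulating hormone that signals through FGF receptors together with Klotho, the product of Kl.

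The 4 libraries held 12245 to 13813 barcodes and 139675666 to 158838728 UMIs each, and 9477 to 11120 barcodes were kept per library. The median mitochondrial share of kept barcodes was 15.9% in the 4 h library and 19.5 to 20.8% in the others. Pairs of libraries shared 26 to 39 barcode sequences, and none of these was an intercalated cell in both libraries of a pair. Shared barcodes that were intercalated cells in only 1 library were not counted. No doublet caller was run. Among the members, 24 carried more than 3 UMIs of a defining gene of another cell type and are called mixed cells below. Intervals are 95% intervals for counting error only, and they do not include differences between mice or preparations.

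The libraries of 0, 1, 4 and 12 h held 68, 110, 231 and 127 intercalated cells. As a share of kept barcodes these were 0.672% in the first library (exact Clopper-Pearson interval 0.522 to 0.851), 1.16% in the second (0.955 to 1.40), 2.08% in the third (1.82 to 2.36) and 1.23% in the last (1.02 to 1.46). The 4 h library had the highest share and the 0 h library the lowest, and neither interval overlapped those of the remaining libraries. These intervals do not show a difference between times, since each time is a single preparation. Intercalated cells had a median of 13972, 14596, 11540 and 12812 UMIs per cell in the order 0, 1, 4 and 12 h. Their median mitochondrial share was 34.3, 32.6, 27.5 and 32.2% in the same order, the lowest again at 4 h. A limit of 25% on mitochondrial UMIs left 11, 19, 96 and 33 cells, so most members of every library lay above that limit. Conversely, 30, 16, 14 and 19 barcodes met the gene conditions but exceeded 50%. The part of mitochondrial content in these shares was not tested.

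The rule was not sensitive to its lowest limits, because the markers were abundant in most members. Of the 536 cells, 526 held 10 or more Atp6v1g3 UMIs, 9 held 3 to 9 and 1 held 2. Just outside the rule, 2 barcodes had 1 Atp6v1g3 UMI and 22 had no Atp6v0d2 UMI while meeting every other condition. The Aqp2 limit had more weight. Of 800 barcodes that met the conditions on both pump subunits, 166 exceeded the limit on Aqp2, 98 that on Slc34a1 and 20 that on Slc12a3. Of the barcodes over the Aqp2 limit alone, 138 had 10 or more Atp6v1g3 UMIs and 136 of these also carried Foxi1. Their median depth was 28168.5 to 37482 UMIs by library, above the medians of the members.

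Foxi1 was not used by the rule and was found in 91.2, 95.5, 89.6 and 89.0% of intercalated cells at 0, 1, 4 and 12 h. In principal cells, which should lack it, the share was 4.35, 4.94, 4.86 and 1.04%. Principal cells were barcodes with 5 or more Aqp2 UMIs, at least 1 of Fxyd4 and none of either pump subunit, 390 in all, with median depths of 9413 to 12312.5 UMIs. The label was thus borne by a gene that did not choose the cells. The levels of the rule genes were close between libraries. As UMIs of the summed cells scaled to a common total (CPM), Atp6v1g3 stood at 5228, 5004, 5895 and 6235 and Atp6v0d2 at 888, 919, 828 and 880 at 0, 1, 4 and 12 h.

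The exchangers split the cells cleanly. In type A cells Slc4a1 had a median of 15.5, 21, 12 and 18.5 UMIs per cell at 0, 1, 4 and 12 h, and 162 of the 184 cells held 5 or more. In type B cells Slc26a4 had a median of 22, 26, 18 and 17 UMIs, and 290 of 327 cells held 5 or more. A single UMI decided the type of 3 type A and 8 type B cells. Slc4a1 is also a red cell gene. The haemoglobin gene Hbb-bs had 7, 0, 6 and 5 UMIs in the members at 0, 1, 4 and 12 h, and Hba-a1 had 0, 0, 3 and 6, the last 6 all in type A. Alas2, the haem synthesis enzyme of red cell precursors, had none, but it had only 5 to 43 UMIs among all kept barcodes of a library. The part of red cell RNA in Slc4a1 was not tested. Of the 6 cells with both exchangers, 5 came from the 4 h library. In 3 of them 1 exchanger had a single UMI, while the other 3 held 13 and 19, 17 and 3, and 27 and 18 UMIs of Slc4a1 and Slc26a4. At 4 h these cells had a median depth of 26875 UMIs, against 11540 for all members of that library. Cells with neither exchanger had a lower median depth than all members of their library, at 6782, 858, 2172.5 and 3498.5 UMIs, but reached 24719 UMIs at 0 h and 33490 at 12 h. Their median mitochondrial share was 9.34, 3.15, 3.08 and 3.11%.

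**Figure D1:**
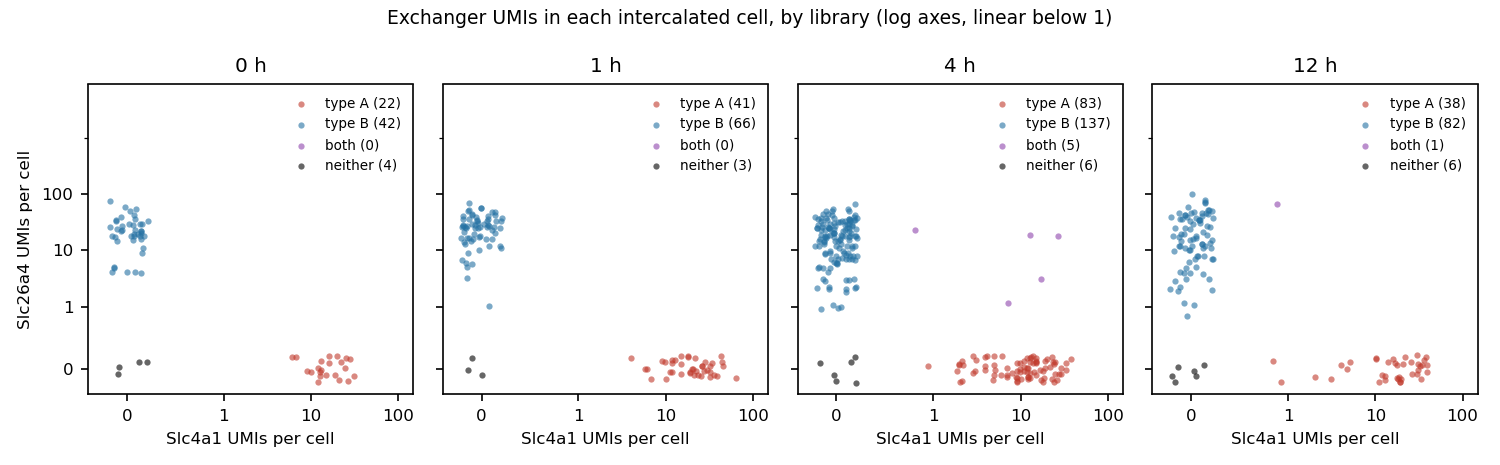
Slc4a1 UMIs (x axis) against Slc26a4 UMIs (y axis) in each intercalated cell, 1 panel per library, on log axes that are linear below 1, with a small random shift added to separate points. Cells lie along the axes, and the 6 cells with both exchangers (5 at 4 h, 1 at 12 h) are the only ones away from them.

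Type A made up 34.4, 38.3, 37.7 and 31.7% of typed cells in the libraries of 0, 1, 4 and 12 h. The exact intervals were 22.9 to 47.3, 29.1 to 48.2, 31.3 to 44.5 and 23.5 to 40.8% in the same order. All 4 intervals overlapped. With every cell thinned to 3000 UMIs, which left out 2, 3, 8 and 12 shallower cells, the shares were 34.9, 38.6, 36.7 and 32.1%. Type B was thus the more numerous type in every library, except that under the 25% mitochondrial limit type A made up 9 of the 17 typed cells left at 1 h (52.9%, exact interval 27.8 to 77.0). Type B cells also had the higher median mitochondrial share in 4 of 4 libraries (36.7, 34.0, 27.9 and 34.8% against 29.4, 30.0, 26.6 and 28.6% in type A). The mean difference was 4.70 percentage points (SD 2.63, n = 4), with a two-sided p of 0.125 by an exact sign-flip permutation test over libraries, the smallest that 4 libraries can give. Median depth was higher in type B in 4 of 4 libraries too, by a mean of 2518 UMIs (SD 1233, n = 4; exact p = 0.125).

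Type A and type B cells were compared on the UMIs summed per type and library, with the library as a block, by edgeR's quasi-likelihood test with Benjamini-Hochberg adjustment over 10163 genes. The genes of the split and of the gate were left out. At an adjusted p under 0.05, 1417 genes (13.9%) differed: 655 (6.44%) were higher in type A and 762 (7.5%) in type B. The fit scales by TMM, and the median gene lay 0.17 higher in type A on the log2 scale in plain CPM than in the fit. None of the called genes had the opposite direction in mean CPM. Without the 4 h library the number of calls was 893, with DESeq2 524, and under the 25% mitochondrial limit 396.

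Type A cells were led by the transcription factor Dmrt2, a regulator known from type A cells (ENSMUSG00000048138, chr19:25672411-25678991 on the plus strand, GRCm38). Its level in type A was 193, 277, 169 and 175 CPM at 0, 1, 4 and 12 h, and all 4 type B libraries were at 0. The 452 UMIs against none were at least 322-fold higher, set against a floor of 3 UMIs over the type B cells (edgeR adjusted p = 3.2e-39). The mucin Muc20 (251 UMIs against 0, at least 179-fold higher) and the anion transporter Slc26a7 (178 against 0, at least 127-fold higher) were likewise not found in type B. Slc26a7 in type A stood at 37.8, 64.2, 105 and 71.4 CPM, a wider spread relative to the mean than that of Dmrt2. The receptor P2ry14, which senses UDP-glucose, was at 90.7, 82.8, 95.6 and 167 CPM in type A and at 2.62 CPM or less in type B. Its log2 difference was 5.93 (SE 0.31; edgeR adjusted p = 5.3e-29). The other genes named by the same rule of size were Tmem158, Bace2, Cbr2, Pgm5, Gnaz and Rprm. Tmem158 and Bace2 had 45 and 44 UMIs in type A and none in type B. Cbr2 had 175 UMIs against 2, a CPM ratio of 187 (interval 51.0 to 1557).

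By size of the log2 difference, type B cells were led by Lsamp, followed by the homeobox factor Hmx2 (ENSMUSG00000050100, chr7:131548773-131558014 on the plus strand, GRCm38). Hmx2 was at 483, 580, 435 and 656 CPM in type B, and 2 UMIs were found in all type A cells, both at 12 h. The CPM ratio over all libraries was 591 (interval 163 to 4880; edgeR adjusted p = 2.3e-46). The cell adhesion gene Lsamp (371 UMIs against 0, at least 57.8-fold higher) was not found in type A. Syt7, a calcium sensor of vesicle fusion, had 504 UMIs against 1, and Ank, a membrane protein that exports pyrophosphate, had 374 against 1. Igfbp5, a secreted binding protein of insulin-like growth factors, was at 927, 867, 909 and 768 CPM in type B and at 41.6, 3.38, 4.34 and 26.0 CPM in type A. Its type B level was even across libraries, whereas the low type A level varied about as much as its own mean (18.8 ± 18.4 CPM; SD, n = 4). The log2 difference of Igfbp5 was -6.16 (SE 0.53; edgeR adjusted p = 0.00859), and it was no longer past the threshold under the 25% mitochondrial limit. Thsd7a, Aldh1l2, Chl1 and Dcn were named by the same rule, with 132 to 189 UMIs in type B and at most 1 in type A.

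**Figure D2:**
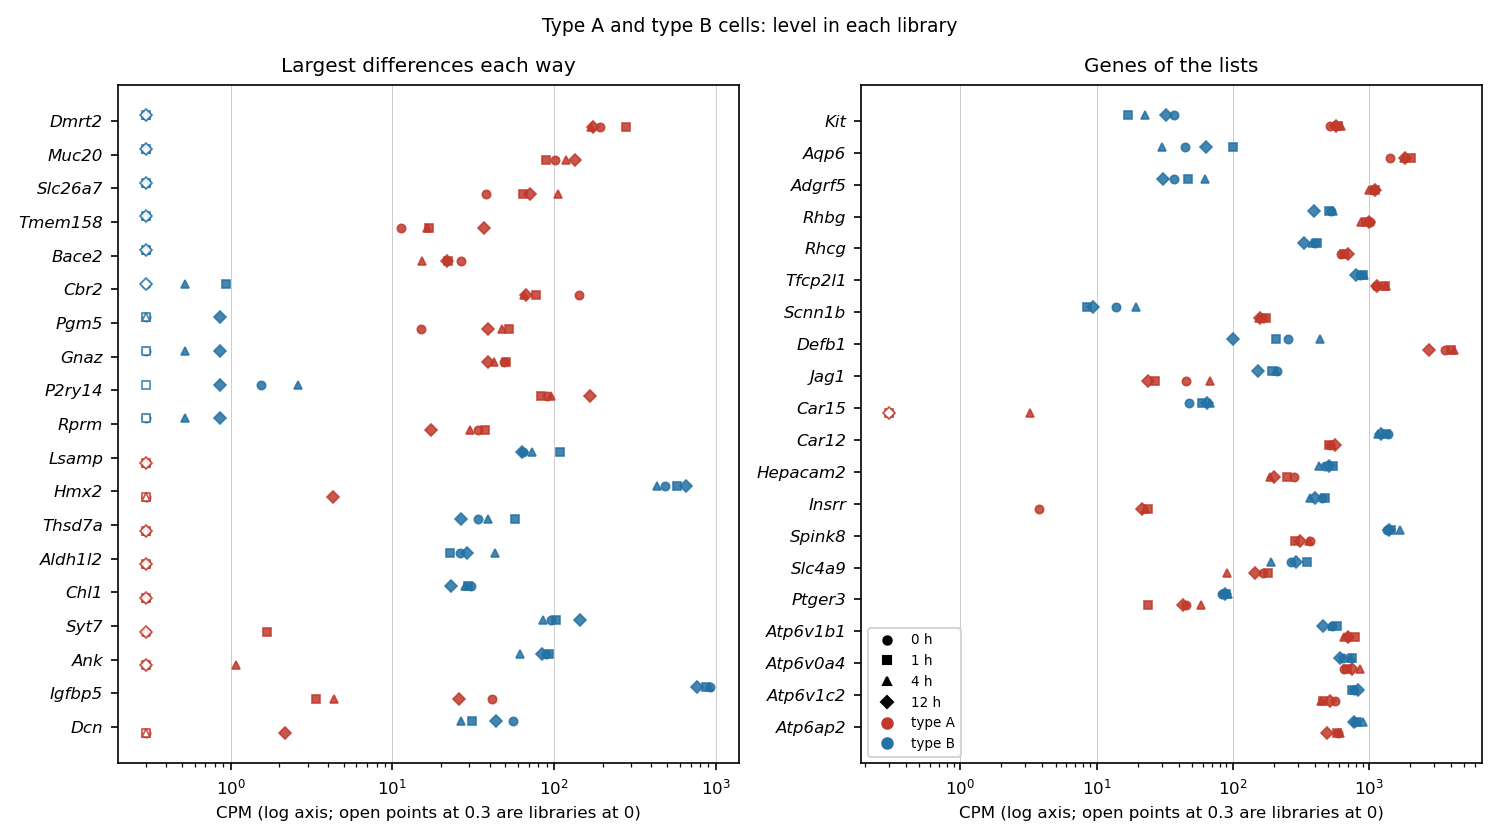
CPM (x axis, log scale) of genes named by size (left) and of list genes (right) in type A (red) and type B (blue) cells, 1 point per library (circle 0 h, square 1 h, triangle 4 h, diamond 12 h), with open points at 0.3 for libraries at 0. In the left panel no type A point meets a type B point of the same gene, while Atp6v0a4 in the right panel overlaps.

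Known markers of the types went in the direction of their names for most genes, but not for all. Of 9 type A markers tested, 6 were higher in type A and 2 in type B, against 6.44% and 7.5% of all genes. Their median log2 difference was 4.38 against 0.01 over all genes. Kit, a receptor tyrosine kinase, was at 578 ± 45.3 CPM in type A and 27.2 ± 9.14 in type B (SD, n = 4 here and below). Aqp6, an intracellular water and anion channel, was at 1780 ± 255 against 59.6 ± 30.1, and Adgrf5, an adhesion receptor that restrains acid secretion, at 1076 ± 47.6 against 44.3 ± 13.8. Their log2 differences were 4.32, 4.83 and 4.38. The Notch ligand Jag1 and the carbonic anhydrase Car15 were listed as type A markers and were higher in type B. Jag1 was at 45.3, 27.0, 68.4 and 23.8 CPM in type A and 211, 193, 207 and 154 in type B (edgeR adjusted p = 4.2e-19). Car15 had 3 UMIs in type A, all at 4 h, and 301 in type B. Slc12a7, a potassium chloride cotransporter, had 26.1 ± 1.88 and 24.9 ± 5.83 CPM and did not pass (edgeR adjusted p = 0.781).

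Of 6 type B markers tested, 5 were higher in type B, against 7.5% of all genes, with a median log2 difference of -2.89. Insrr, the insulin receptor-related receptor that senses alkali, was at 451, 474, 369 and 399 CPM in type B and at 3.78, 23.7, 22.8 and 21.7 in type A. Spink8, a protease inhibitor gene, was at 1483 ± 156 CPM in type B and 333 ± 40.1 in type A. The basolateral anion exchanger Slc4a9 (AE4) differed less, at 275 ± 65.7 in type B and 146 ± 40.3 in type A, a log2 difference of -1.11 (SE 0.11; edgeR adjusted p = 1.9e-13). Slc4a9 was lowest at 4 h in both types, at 90.1 CPM in type A and 192 in type B. Slc4a8, a sodium-dependent bicarbonate exchanger described in type B cells, was near the lower end of detection (15 UMIs in type A, 40 in type B) and did not pass (edgeR adjusted p = 0.635).

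Genes of the shared intercalated programme were also unequal between the types. Among 14 genes, 7 were higher in type A and 5 in type B, against 6.44% and 7.5% of all genes. The ammonia transporters Rhbg (964 ± 63.5 CPM in type A, 496 ± 69.6 in type B) and Rhcg (660 ± 29.7 against 383 ± 37.4) were both on the type A side. On the same side were Tfcp2l1, a transcription factor of the collecting duct, Clnk, the oxoglutarate receptor Oxgr1 and Ncoa7. On the type B side were the carbonic anhydrases Car12 (1280 ± 98.4 CPM in type B, 534 ± 22.6 in type A, log2 difference -1.42) and Car2 (2823 ± 110 against 2168 ± 165, -0.55). Hepacam2, an adhesion molecule, was at 489 ± 49.1 CPM in type B and 230 ± 43.9 in type A. Foxi1 differed little, with a log2 difference of -0.33 (SE 0.11; edgeR adjusted p = 0.0388), and its libraries overlapped between the types. The barttin gene Bsnd did not pass.

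The proton pump differed between the types by subunit. Of the subunit isoforms enriched in these cells, Atp6v1b1 was slightly higher in type A, at 718 ± 57.2 CPM against 531 ± 52.4 (log2 difference 0.27, SE 0.096; edgeR adjusted p = 0.0463). Atp6v1c2 was higher in type B, at 784, 759, 774 and 832 CPM against 563, 460, 448 and 522 in type A (log2 difference -0.84; edgeR adjusted p = 3.1e-11). Atp6v0a4 was at 739 ± 88.3 CPM in type A and 686 ± 64.2 in type B and did not pass (edgeR adjusted p = 0.790). Among 16 subunits and accessory proteins that most cells use, 0 were higher in type A and 6 in type B (Atp6v1b2, Atp6v1g1, Atp6v1h, Atp6v0e, Atp6ap1 and Atp6ap2). Over all genes 6.44% were higher in type A and 7.5% in type B, so the type A count of 0 is near that share. The median log2 difference of these 16 was -0.32. Atp6ap2, the prorenin receptor, was the clearest of them, at 824 ± 59.3 CPM in type B and 570 ± 53.9 in type A.

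Other transport and energy genes gave a mixed picture. In the acid-base list 5 of 20 were higher in type A and 4 in type B, and 11 did not pass, against 6.44% and 7.5% of all genes. The sodium potassium chloride cotransporter Slc12a2 was at 34.2 ± 7.01 CPM in type A and 5.97 ± 2.48 in type B (log2 difference 2.27). The sodium proton exchanger Slc9a2 was higher in type A as well, with a log2 difference of 0.80. In the energy list 2 of 19 were higher in type A, the mitochondrial coactivators Ppargc1a (0.32) and Ppargc1b (0.81), and 6 were higher in type B. The type A count of 2 is near the share over all genes. The largest of the 6 was Fxyd2, the gamma subunit of the sodium pump, at 8059 ± 1099 CPM in type B and 3132 ± 995 in type A. The ATP synthase genes Atp5a1 and Atp5b had log2 differences of -0.27 and -0.30.

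Some receptors, Notch genes and defence genes also differed between the types, to be read against the 6.44% of all genes higher in type A and 7.5% in type B. Of 13 receptor genes 1 was higher in type A and 5 in type B, and 7 did not pass. The calcitonin receptor Calcr was the type A gene, with 40 UMIs against 0. On the type B side were the alkali sensor Insrr, Atp6ap2, the prostaglandin receptor Ptger3 (87.9 ± 3.64 CPM against 42.7 ± 14.4), the secretin receptor Sctr (34.8 ± 9.13 against 20.9 ± 7.69) and the calcium-sensing receptor Casr (12.7 ± 2.53 against 1.66 ± 1.92). Notch genes were higher in type B in 3 of 8 cases, namely the ligands Jag1 and Dll1 and the target Hey2, and the other 5 did not pass. Defence genes were higher in type A in 3 of 6 cases, and the other 3 did not pass. The beta-defensin Defb1 was at 3658, 4037, 4208 and 2791 CPM in type A and at 254, 206, 439 and 101 in type B (log2 difference 3.83, SE 0.32; edgeR adjusted p = 0.00673). Cd24a and the immunoglobulin receptor Pigr had log2 differences of 2.72 and 4.07.

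Type A cells carried more of some principal cell genes. Of 8 principal cell markers tested, 4 were higher in type A (Scnn1b, Fxyd4, Gata3 and Npnt) and 1 in type B (the water channel Aqp3). Over all genes 6.44% were higher in type A and 7.5% in type B. Scnn1b, the beta subunit of the epithelial sodium channel, was at 166, 176, 155 and 158 CPM in type A and at 13.9, 8.48, 19.4 and 9.42 in type B (log2 difference 3.41; edgeR adjusted p = 2.3e-27). Aqp4, a defining gene of principal cells, was at 0 in both types in every library. The summed level of the 11 principal cell markers was 495 to 778 CPM in type A and 296 to 527 in type B, against 17959 to 22454 in principal cells. The part of principal cell RNA in the differences was not tested. The immediate early genes Fos, Fosb and Jund were higher in type B (3 of 17, against 7.5% of all genes), and 0 of 13 clock genes differed, against 13.9% in either direction. Against that background neither count is read as a result. The calls of S100a8, S100a9, Retnlg, Il1b, Nkg7 and Trbc2 as higher in type A rested on few cells. For S100a8, 103 of 108 UMIs at 1 h came from 1 cell.

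Intercalated cells were next set against principal cells, their neighbours in the same ducts, by the same edgeR test over 11660 genes. Of these, 4487 (38.5%) differed at an adjusted p under 0.05: 2214 (19%) were higher in intercalated and 2273 (19.5%) in principal cells. With more than 1 gene in 3 called, a list is to be read against that background. Mitochondrial genes took 28.6 to 33.9% of UMIs in intercalated and 14.6 to 21.4% in principal cells by library. The median gene lay 0.39 lower in CPM than in the fit on the log2 scale, and the part of mitochondrial UMIs in this shift was not tested. Of the calls, 149 (3.32%) were higher in intercalated cells by the fit and lower in mean CPM, among list genes only Atp6v1g1 and Hsp90ab1. DESeq2 called 2831 genes.

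All 3 tested V-ATPase isoforms of intercalated cells were higher. Atp6v1c2 was at 705, 654, 663 and 738 CPM in intercalated cells and at 5.06, 0, 2.79 and 0 in principal cells (log2 difference 8.74, SE 0.31; edgeR adjusted p = 2.9e-07). Atp6v0a4 was at 630, 724, 769 and 634 CPM against 106, 126, 129 and 120 (2.91), and Atp6v1b1 at 570, 660, 573 and 514 against 220, 143, 135 and 164 (2.23). Of these subunits, Atp6v1c2 was nearly absent from principal cells, whereas the other pair was present there at a lower level. Subunits used by most cells followed: 13 of 17 were higher and 2 lower, against 19% and 19.5% of all genes. Their median log2 difference was 1.15 against -0.02 over all genes. Atp6v1a, the catalytic subunit, was at 1786 ± 167 CPM against 569 ± 99.1. Atp6v1d, Atp6ap1 and Atp6v1e1 had log2 differences of 2.81, 2.65 and 2.59. The direction of Atp6v1g1 (0.38 in the fit) was the opposite in mean CPM, at 294 against 298. Atp6v0d1, the ubiquitous partner of the gate gene Atp6v0d2, was lower, at 50.3 ± 7.40 CPM against 150 ± 33.2 (log2 difference -1.21; edgeR adjusted p = 9.9e-10). Tcirg1, an isoform that stands in the place of Atp6v0a4 in other cells, was lower too (-1.37).

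The windows of 250 bases before the start are shown for the 3 isoform genes, which were all higher in intercalated than in principal cells. Between the types, Atp6v1b1 was higher in type A, Atp6v1c2 in type B, and Atp6v0a4 did not pass. Foxi1 is a forkhead factor, and its part in these differences was not tested. Sequences are RefSeq's, GRCm38.p6, and the letters TGTTTAC, a forkhead core motif, are in capitals where present, with the reverse complement GTAAACA searched for as well. Each is printed 5′ to 3′ along its gene.
Atp6v1b1, chr6:83742767-83743016, plus strand: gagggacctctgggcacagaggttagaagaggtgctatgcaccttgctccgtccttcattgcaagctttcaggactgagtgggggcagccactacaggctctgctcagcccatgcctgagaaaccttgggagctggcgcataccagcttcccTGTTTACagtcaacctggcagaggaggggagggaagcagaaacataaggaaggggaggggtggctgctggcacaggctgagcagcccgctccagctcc
Atp6v0a4, chr6:38124587-38124836, minus strand: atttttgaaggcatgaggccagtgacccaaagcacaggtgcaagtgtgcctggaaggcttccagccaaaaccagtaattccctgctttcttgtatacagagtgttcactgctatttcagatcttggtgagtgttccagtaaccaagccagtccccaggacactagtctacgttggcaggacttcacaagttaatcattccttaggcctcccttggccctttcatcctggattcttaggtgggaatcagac
Atp6v1c2, chr12:17324731-17324980, minus strand: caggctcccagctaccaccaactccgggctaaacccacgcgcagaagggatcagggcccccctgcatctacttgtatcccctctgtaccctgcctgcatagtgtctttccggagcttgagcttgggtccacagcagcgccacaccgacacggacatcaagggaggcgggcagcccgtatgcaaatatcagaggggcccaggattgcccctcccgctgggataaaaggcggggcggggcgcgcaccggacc
Atp6v1b1 held 1 match, 98 bases before the start on its own strand. The windows of Atp6v0a4 and Atp6v1c2 held none, nor did those of Atp6v1g3, Slc26a4 and Foxi1. All starts here are RefSeq's. The Atp6v1c2 window lies inside that gene's GENCODE bounds (chr12:17284721-17329359), and the bases before the GENCODE start were not searched. Over all 32851 windows of the same length, 1040 (3.17%) held the motif on either strand. A match describes the letters and does not show binding.

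The shared intercalated list was higher in 13 of 14 genes, against 19% of all genes, with a median log2 difference of 3.52. Foxi1 was at 323, 439, 396 and 371 CPM in intercalated cells and at 3.79, 10.1, 3.25 and 0.919 in principal cells (6.92). Car12 was at 1027 ± 55.9 against 22.4 ± 4.55 (5.94), and Oxgr1 at 368 ± 52.9 against 7.44 ± 2.70 (6.10). Car2, the cytosolic carbonic anhydrase, had a smaller difference, at 2589 ± 85.3 against 830 ± 174 CPM (2.05). The ammonia transporter Rhcg was the exception and was lower, at 461 ± 33.6 against 774 ± 155 CPM (log2 difference -0.33; edgeR adjusted p = 0.0114). Rhbg, its relative on the blood side, was higher (1.13; edgeR adjusted p = 0.0113). Tfcp2l1 was close to equal in CPM, at 982 ± 82.2 against 929 ± 191, with a log2 difference of 0.49 in the fit.

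Among genes named by size, Slc26a4, which also split the types, had 7588 UMIs against 2 in principal cells. Klkb1, the plasma prekallikrein gene, had 720 UMIs against 0 and was at least 162-fold higher. Its 4 libraries stood at 90.1, 136, 83.3 and 94.9 CPM. Stap1, a signalling adaptor, was at 106, 102, 104 and 107 CPM, with 1 UMI in all principal cells (CPM ratio 514, interval 91.9 to 20316). The extracellular protein Ccbe1 (226 UMIs against 0) and the actin cross-linker Actn2 (218 against 0) were at least 51.0-fold and 49.2-fold higher. Insrr, Slc4a9, Hepacam2, Aqp6 and Atp6v1c2 made up the rest. On the principal side stood Aqp4 (1724 UMIs against 0, at least 849-fold higher there), the urea transporter Slc14a2 and the retinal dehydrogenase Aldh1a3. Further principal cell genes were Col26a1, Sbspon, Spock3, Samd5, Hacd4 and Bex1, with at most 1 UMI each in intercalated cells. All 9 principal cell markers tested were higher in principal cells, against 19.5% of all genes. Aqp2 and Fxyd4, which chose the principal cells, were left out of the test, and genes that go with Aqp2 are favoured by that choice.

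**Figure D3:**
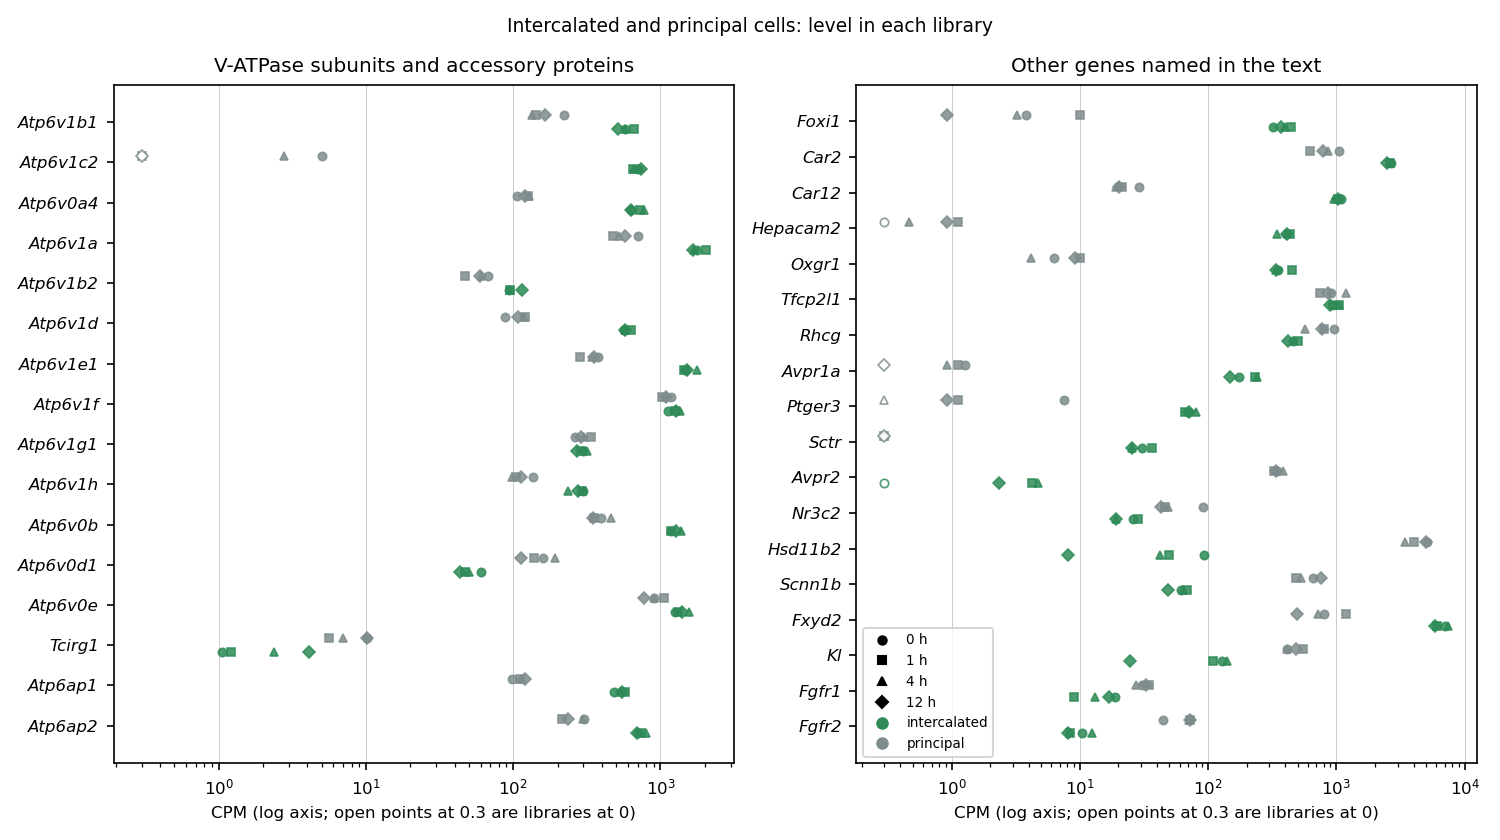
CPM (x axis, log scale) in intercalated and principal cells, 1 point per library (circle 0 h, square 1 h, triangle 4 h, diamond 12 h), with open points at 0.3 for libraries at 0. Atp6v1c2 stands at 654 to 738 CPM in intercalated cells and at 5.06 or below in principal cells.

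Energy genes were higher in intercalated cells in 14 of 19 cases and lower in 1, against 19% and 19.5% of all genes. Their median log2 difference was 0.95. Fxyd2 was at 6613 ± 787 CPM against 800 ± 285 (3.50), and the mitochondrial creatine kinase Ckmt1 at 603 ± 44.8 against 125 ± 32.2 (2.70). Cox4i1 and Atp5b, parts of the respiratory chain and the ATP synthase, had log2 differences of 1.08 and 0.93. Atp1b1, the beta subunit of the sodium pump, was lower (-0.21; edgeR adjusted p = 0.0302). In the acid-base list 11 of 24 genes were higher and 7 lower, against 19% and 19.5% of all genes. Among the lower genes were the hydrogen potassium pump gene Atp4a (36.6 ± 5.73 against 166 ± 38.1 CPM, -1.73), Atp12a (1 UMI against 30), Slc4a8 (-1.53) and Slc4a4 (-2.19).

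Hormone receptors divided between the cells, with 8 of 15 higher in intercalated and 7 in principal cells, against 19% and 19.5% of all genes. The vasopressin receptor Avpr1a was at 173, 232, 239 and 147 CPM in intercalated cells and at 1.26, 1.12, 0.928 and 0 in principal cells (8.23). The other vasopressin receptor, Avpr2, was at 0, 4.23, 4.74 and 2.33 CPM in intercalated cells against 326 to 387 in principal cells (-6.30). The 2 receptors of the same hormone thus lay on opposite sides. Ptger3 was higher in intercalated cells (71.8 ± 6.32 against 2.41 ± 3.49 CPM) and Ptger1, which binds the same prostaglandin, in principal cells (571 UMIs against 4). Sctr and Calcr had 209 and 44 UMIs in intercalated cells and none in principal cells. The mineralocorticoid receptor Nr3c2 was lower (-0.85), the glucocorticoid receptor Nr3c1 higher (1.19), and Hsd11b2, the enzyme that keeps glucocorticoids off the mineralocorticoid receptor, was at 48.2 ± 35.0 against 4380 ± 788 CPM. Sgk1, an aldosterone-induced kinase, was at 28.8 ± 7.72 against 521 ± 361 CPM.

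Notch genes went both ways, with 3 of 11 higher, 5 lower and 3 not called (Notch1, Jag2 and Hey2). The counts of this list and of the next lists stand beside 19% of all genes higher and 19.5% lower. The Notch count of 3 higher is near that share. The ligands Jag1 (143 ± 20.7 against 18.8 ± 8.86 CPM), Dll1 and Dll4 were higher in intercalated cells, with log2 differences of 3.23, 2.29 and 3.38. The receptor Notch2 (8 UMIs against 213), the targets Heyl (1 against 95) and Hes1, and the processing genes Mib1 and Adam10 were lower. Of 20 immediate early genes 15 were lower in intercalated cells and 1, Atf3, was higher. Junb was at 94.3, 96.7, 57.2 and 28.0 CPM against 635, 505, 609 and 255 in principal cells (log2 difference -2.54; edgeR adjusted p = 5.6e-09). In the list of ERK feedback genes, 8 of 13 were lower, among them Spry1 (-2.03) and Spred1 (-1.81), and Dusp10 was higher. Defence genes went both ways, with Lcn2 (-6.68) and Cd24a (-2.89) lower and Pigr and Il18 higher.

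Genes that receive FGF signals were lower in 2 of 7 cases in intercalated cells and higher in 0, against 19.5% and 19% of all genes. Both counts are near those shares and neither is read as a result. The median log2 difference of the list was -0.19 against -0.02 over all genes. Fgfr1 was at 18.9, 9.06, 13.2 and 16.9 CPM in intercalated and at 30.4, 34.7, 27.4 and 33.1 in principal cells (log2 difference -0.74; edgeR adjusted p = 0.00623). Fgfr2 was lower too, at 9.91 ± 2.03 against 65.0 ± 13.9 CPM (-2.33). Fgfr3 had 31 UMIs in intercalated and 10 in principal cells and did not pass (1.43; edgeR adjusted p = 0.0626). Between the types Fgfr3 was higher in type A, with 1, 6, 13 and 1 UMIs against 1, 3, 2 and 2 in type B (log2 difference 2.09; edgeR adjusted p = 0.0229). Kl was at 129, 109, 141 and 24.5 CPM in intercalated cells and at 409, 552, 415 and 485 in principal cells, and did not pass (-1.92, SE 0.57; edgeR adjusted p = 0.0915). The Kl UMIs came from few cells. At 0, 1, 4 and 12 h they were found in 16, 18, 34 and 20 cells, and 54 of 123, 62 of 181, 71 of 417 and 13 of 42 were in 1 cell. Kl was the more uneven when split by type, with 2, 115, 213 and 8 UMIs in type A and 66, 66, 197 and 27 in type B. Vdr, the vitamin D receptor, was at 98.5, 117, 97.2 and 50.1 CPM, and its target Cyp24a1 had 1, 5, 10 and 6 UMIs.

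Markers of other cells were present in the members, and the list of the distal convoluted and connecting tubule was abundant. Summed over its list, the proximal tubule level was 1455, 515, 717 and 468 CPM at 0, 1, 4 and 12 h with all 12 genes found. The level of the distal convoluted and connecting tubule list was 8457, 5956, 8311 and 3518 CPM, above that of the gate gene Atp6v1g3 at 0, 1 and 4 h, and that of the thick ascending limb list 319, 347, 522 and 555. Endothelial markers summed to 10.3 to 65.7 CPM, macrophage markers to 6.41 to 23.1 with Adgre1 at 0 throughout, and lymphocyte markers to 1.05 to 21.3 with Ms4a1 at 0. Neutrophil markers stood at 9.43, 163, 3.05 and 0.582 CPM. These sums moved between libraries, the proximal list being highest at 0 h and the neutrophil list at 1 h, but few cells held much of them. At 0 h single cells held 349 of the 950 Kap UMIs of all members and 316 of the 397 in type A. The median member held 4. Of the 8069 distal convoluted and connecting tubule UMIs at 0 h, 813 were in type A and 4197 in type B. The rest were in the 4 cells with neither exchanger. The part of these sums in the time comparisons was not tested.

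The last question was whether the members differed over time after FGF23. Each time was compared with the 0 h library by the log2 ratio of CPM with its exact conditional interval, and a gene was counted when it changed at least 2-fold with 20 or more UMIs over both libraries. At 1 h, 393 of 8221 genes (4.78%) were past 2-fold, 261 up (3.17%) and 132 down (1.61%). At 4 h the count was 624 of 9240 (6.75%), with 495 up (5.36%) and 129 down (1.4%), and at 12 h 430 of 8271 (5.2%), with 247 up (2.99%) and 183 down (2.21%). For these counts a gene with 0 UMIs in a library was set to a floor of 3 UMIs there. The 3 comparisons share the 0 h library of 68 cells. Raising the minimum to 50 UMIs lowered the counts to 87, 221 and 88. At 4 h the median gene lay 0.11 above 0 h on the log2 scale, and with mitochondrial UMIs left out of the CPM this shift was -0.00 and the share of upward calls was 64.4% in place of 79.3%.

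In all members summed, 0 of the 3 pump isoforms, 15 common pump genes, 14 shared intercalated genes and 18 to 19 energy genes measured were past 2-fold at any time. The share over all genes was 4.78, 6.75 and 5.2% at 1, 4 and 12 h, so counts of 0 in lists of this size lie near the background. By type, 2 common pump genes were past 2-fold in type A. Atp6v0a2 had 2, 18, 29 and 11 UMIs there and was higher at 1 h and 4 h, and Atp6v0d1 was at 83.1, 49.0, 38.0 and 32.5 CPM and was lower at 4 h and 12 h. In type B the energy gene Ppargc1b was past 2-fold upward at 4 h, from 8 to 53 UMIs (log2 ratio 1.17). List medians were 0.20, 0.01 and 0.01 for the isoforms and 0.11, 0.04 and -0.01 for the shared genes at 1, 4 and 12 h, beside 0.05, 0.11 and 0.01 over all genes. Atp6v1b1 moved from 570 CPM to 660, 573 and 514. In all members summed, Slc26a7 alone among type A markers and in the acid-base list was past 2-fold, upward at 1 h and 4 h. Among type B markers Sh2d4b alone was past 2-fold, and it was lower at 1 h. Fgfr1 was past 2-fold downward at 1 h, from 18 to 15 UMIs. Slc4a9 was at 227, 290, 153 and 245 CPM, and its log2 ratio at 4 h was -0.57 (interval -0.80 to -0.33). Within type A, Slc26a7 was past 2-fold at 4 h but not at 1 h, and Insrr was past 2-fold upward at 4 h. Within type B at 1 h, Aqp6 was past 2-fold upward, and Kit and Sh2d4b downward.

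Immediate early genes, which respond within minutes to many stimuli and to tissue dissociation, were lower at 12 h. Of 12 measured, 7 were past 2-fold downward and 0 upward, against 2.21% and 2.99% of all genes, and their median log2 ratio was -1.18. At 1 h, 2 of 14 were upward (Atf3 and Nr4a1) and 0 downward, against 3.17% and 1.61% of all genes. At 4 h, 2 of 15 were upward and 1 downward, against 5.36% and 1.4%. The same shares apply to the ERK feedback genes. Of these, 2 of 9 were upward at 1 h (Spry1 and Hbegf) and 1 downward (Spred2). Later 0 were upward, and 1 of 10 at 4 h and 2 of 6 at 12 h were downward. Egr1 was at 152, 99.7, 72.1 and 23.3 CPM at 0, 1, 4 and 12 h (12 h ratio -2.71, interval -3.25 to -2.19). Fos was at 131, 142, 147 and 40.8 CPM, and Fosb at 49.3, 50.1, 44.0 and 10.5. Fos, Fosb and Jun stood at a similar level in the first 3 libraries and were low in the 12 h library alone, while Egr1 stepped down from each library to the next. The Fos UMIs came from 16, 26, 62 and 18 cells, so a minority of cells carried them. In principal cells 8 of 16 immediate early genes were past 2-fold downward at 12 h, against 2.95% of all genes there, and the median ratio was -1.15. Fos was at 119 CPM in principal cells at 12 h, against 421 at 0 h. Upward, 1 of 16 was past 2-fold there at 12 h (background 2.43%), and at 1 h the principal cell counts were 0 upward (4.02%) and 0 downward (2.4%).

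By type, the lower level at 12 h was in type B. There 7 of 12 immediate early genes were past 2-fold downward (background 2.91%), with a median ratio of -1.68, and 0 upward (background 3.27%). In type A 0 of 8 were past 2-fold downward (background 2.96%) and 1, Ier2, upward (background 4.86%), with a median of -0.11. Egr1 in type B was at 205, 73.5, 83.8 and 21.4 CPM and in type A at 45.4, 147, 53.2 and 32.5. At 1 h the types went apart: 6 of 12 genes (Junb, Egr1, Ier2, Atf3, Klf6 and Zfp36) were past 2-fold upward in type A, against 7.05% of all genes, and 0 of 14 in type B, against 3.09%. Downward at 1 h the counts were 0 of 12 in type A (background 2.11%) and 2 of 14 in type B (background 1.64%). Junb in type A went from 56.7 to 134 CPM (log2 ratio 1.24, interval 0.43 to 2.14), while in type B it was at 115 and 76.3. The type A baseline rested on 22 cells and 12 Egr1 UMIs from 2 cells, against 87 Egr1 UMIs in 19 cells at 1 h. Markers of other cells were also higher in the type A sum at 1 h. Past 2-fold upward were 4 of 7 principal cell markers (median log2 ratio 1.42), 3 of 4 of the distal convoluted and connecting tubule (2.38) and 3 of 3 of neutrophils (4.00). Their summed levels in type A went from 495 to 778, from 3072 to 10168 and from 18.9 to 448 CPM. Single cells held much of these levels, with 1963 of 2345 S100g UMIs and 70 of 73 Hsd11b2 UMIs of type A at 1 h. Most S100a8 UMIs at 1 h also came from 1 cell, as given above. The part of these markers in the immediate early genes was not tested. At 4 h, 1 of 11 genes was past 2-fold upward in type A (Klf6, background 10.4%) and 0 downward (2.54%). In type B 3 of 15 were upward (background 5.5%) and 3 downward (1.87%), Klf6 among the latter, and in principal cells 3 of 17 were upward (5.95%) and 3 downward (1.85%). The difference between the types was not tested.

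**Figure D4:**
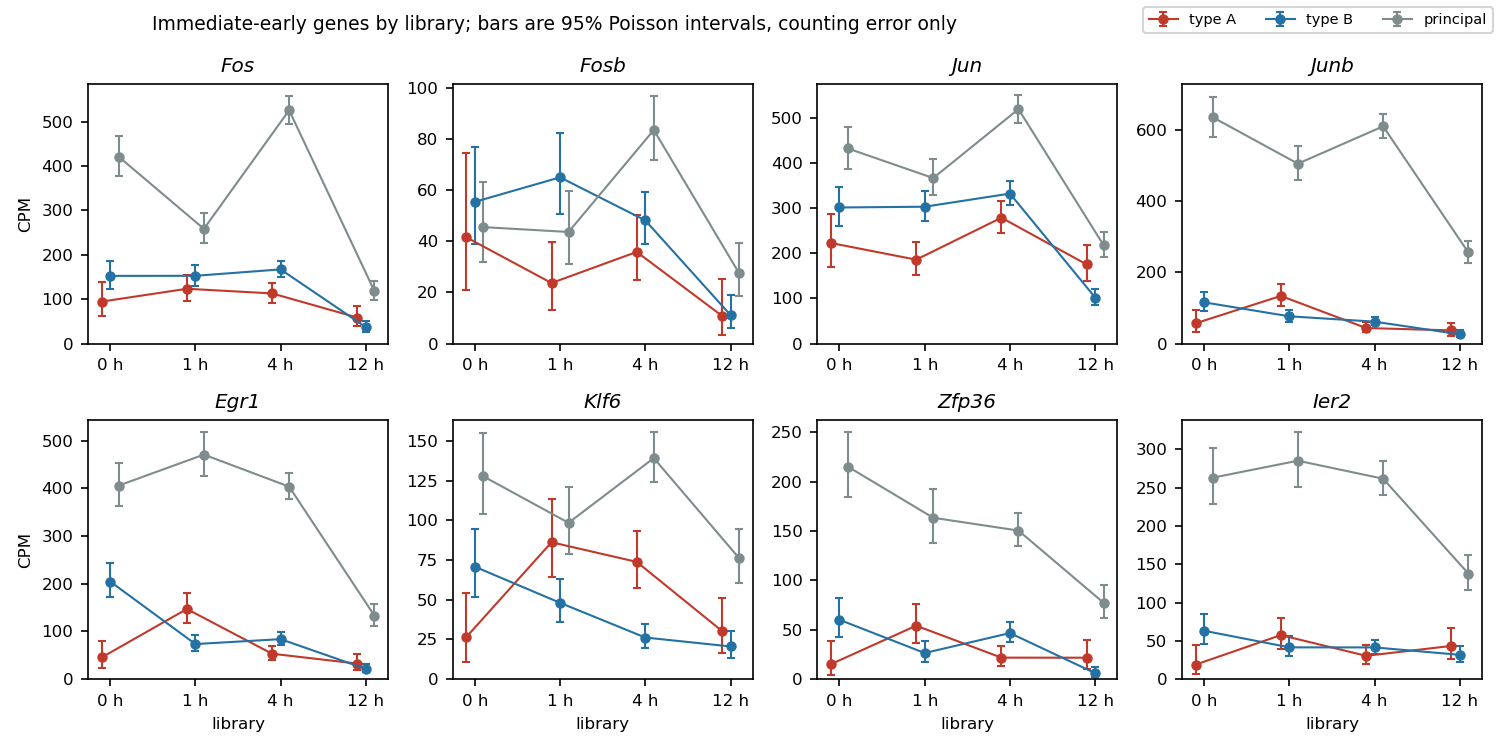
CPM (y axis) of 8 immediate early genes in type A, type B and principal cells of the 4 libraries (x axis), with 95% Poisson intervals for counting error only and 1 library per time. Egr1 is at 21.4 CPM in type B at 12 h and at 147 CPM in type A at 1 h.

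Genes were named by time among those with 50 or more UMIs that were past 2-fold the same way in female-called and male-called cells. For this rule 0.5 was added to each count, so a gene with 0 UMIs in a sex could still pass. Npnt, which encodes the matrix protein nephronectin, led at 1 h and went from 8 to 47 UMIs (log2 ratio 1.76, interval 0.66 to 3.05). The UMIs were mostly in type A cells, with 1 UMI at 0 h and 39 at 1 h, and from 14 cells in all, 1 of which held 16 UMIs. Npnt is also a principal cell gene, and the part of principal cell RNA was not tested. Jmjd6, a lysyl hydroxylase, went from 11 to 56 UMIs and from 11 to 40 cells (1.55, interval 0.61 to 2.63), and was higher in both types. Its CPM was 11.5 at 0 h, then 33.8, 34.5 and 28.0, so all later libraries were higher than the first. Smad7, an inhibitor of TGF-beta signalling, went from 15.7 to 44.7 CPM (1.51, interval 0.69 to 2.42) and was at 33.9 and 32.6 CPM later. In type A cells Smad7 stood at 18.9, 67.6, 61.9 and 69.3 CPM, and in type B at 15.4, 32.0, 18.3 and 17.1. The transferrin receptor Tfrc went from 13.6 to 36.2 CPM. Trmt10c, Garem1, Rasd2 and Gzf1 had ratios of 1.34 to 1.49, and 13 genes passed the rule upward in all. In principal cells Jmjd6, Smad7 and Tfrc had ratios of 0.63, 0.11 and -0.10 at 1 h. Of the 3 genes lower at 1 h, Nupr1 (131 to 56 UMIs) had 94 of its UMIs at 0 h in 1 cell, and its ratio was -2.02 with and -0.58 without the cells of most UMIs.

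At 4 h, where 35 genes passed the rule upward and 5 downward, the first was Dact2, a modulator of Wnt and TGF-beta signalling. Dact2 had 3, 13, 96 and 36 UMIs at 0, 1, 4 and 12 h in 2, 13, 66 and 30 cells. Its log2 ratio at 4 h was 3.37 (interval 1.78 to 5.67), and 1.05 under the 25% mitochondrial limit, where 11 cells represent 0 h. Dact2 reached 22 UMIs in principal cells at 4 h, from 4 at 0 h (1.01, interval -0.54 to 3.01). The growth factor Fgf9 went from 7.34 to 29.1 CPM and from 7 to 53 cells (1.99, interval 0.88 to 3.35), and was still at 23.9 CPM at 12 h. Cdk2ap1, Zufsp and Rita1 had ratios of 2.05, 1.96 and 1.92. Lockd had 22 of its 50 UMIs in 1 cell, and Egfl7, an endothelial gene, had its 48 in 14 cells. Anxa2, a membrane-binding protein, had 55 of its 59 UMIs in type B cells. Egfl7 and Anxa2 reversed under the 25% limit. Of the lower genes, Ccl5 had all of its 100 UMIs at 0 h in 1 cell. Male-called cells held 0 Ccl5 UMIs at 0 h and at 4 h. Its male ratio of -1.67 thus came only from the added 0.5 and the unequal totals. Gstp1, whose close paralogues may share reads, went from 41.9 to 11.8 CPM in intercalated cells (-1.82) and had a ratio of -2.08 in principal cells.

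Among clock genes at 4 h, 3 of 12 were past 2-fold downward (Per1, Dbp and Nr1d1) and 1 upward (Cry1), against 1.4% and 5.36% of all genes. Nr1d1 was at 26.2, 25.4, 7.11 and 32.0 CPM, low in the 4 h library only. In principal cells its 4 h log2 ratio was -3.91. The zinc-binding Mt2 was at 17.8, 28.4, 51.5 and 48.3 CPM and Mt1 at 329, 344, 647 and 415. The 4 h ratio of Mt1 was 0.98, just under 2-fold. Collection times of day are not given in the labels.

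At 12 h, 13 genes passed the rule downward and 8 upward. Apart from the immediate early genes, the clearest was Slc16a5, of the monocarboxylate transporter family, at 101, 101, 107 and 32.0 CPM (log2 ratio -1.65, interval -2.16 to -1.16). It was found in 38 of 68 cells at 0 h and 40 of 127 at 12 h, and it was lower in type B (135 to 42.8 CPM, log2 ratio -1.66) and in type A (26.5 to 10.8 CPM, -1.29, interval -3.29 to 0.58). In principal cells Slc16a5 had a ratio of 0.42 (interval -0.24 to 1.10). Hsd11b2, Calb1, S100g and Kl, genes of the connecting tubule and principal cells, were also lower, and single cells held 47 of 89, 63 of 157, 1047 of 2291 and 54 of 123 of their UMIs at 0 h. Of the higher genes, Cdkn1b, a cyclin-dependent kinase inhibitor, went from 16.8 to 39.0 CPM and from 14 to 49 cells (1.22, interval 0.42 to 2.10), but was at 0.10 under the 25% limit. Myo5a, a vesicle motor, went from 25 to 92 UMIs, 89 of them in type B. The thick ascending limb genes Slc12a1 (6 to 171 UMIs) and Egf (11 to 218) had 83 and 155 UMIs in 1 cell each at 12 h, and without the mixed cells the Egf ratio was -0.40.

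**Figure D5:**
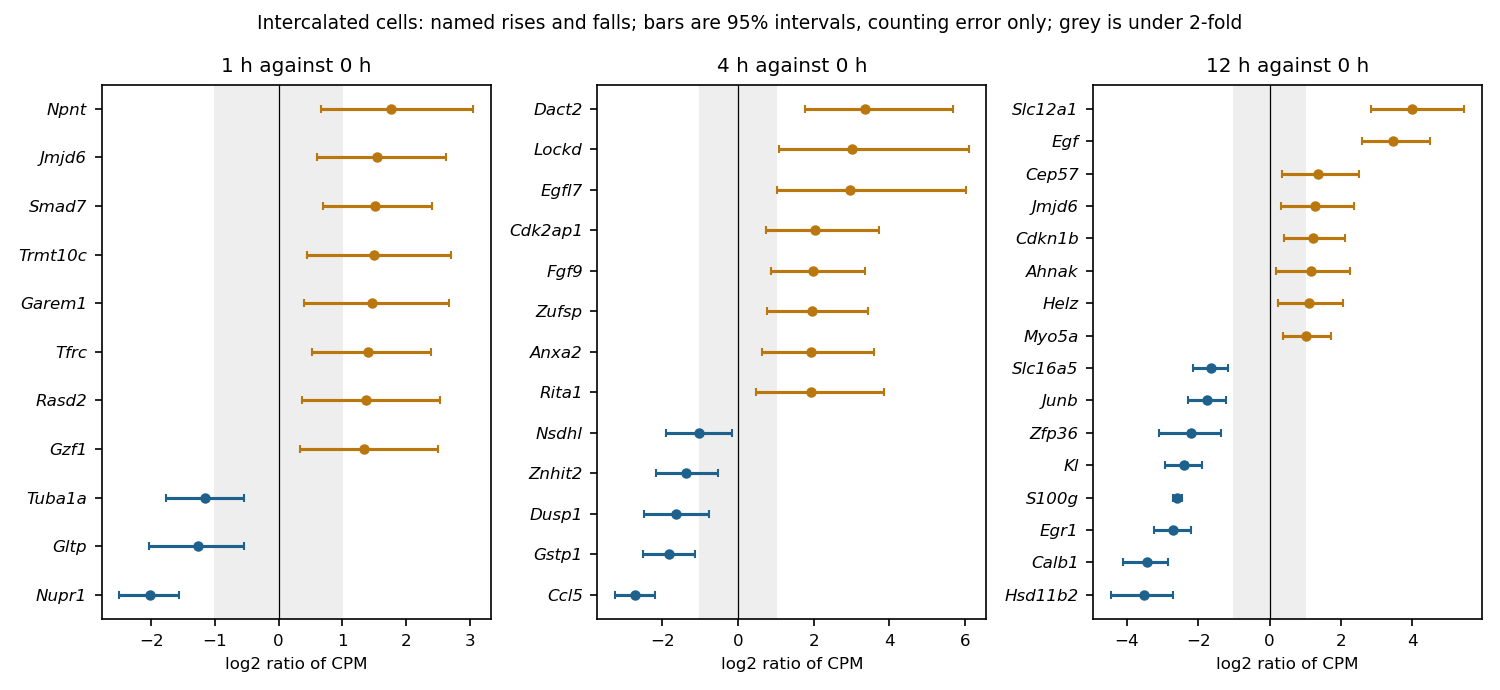
Log2 ratio of CPM (x axis) at 1 h, 4 h and 12 h against 0 h in intercalated cells for the named genes, with exact 95% intervals for counting error only and changes under 2-fold shaded grey. Orange points are higher and blue points lower than at 0 h, with Dact2 at 3.37 for 4 h and Slc16a5 at -1.65 for 12 h.

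Male and female cells were present in every library, and 214 female-called and 203 male-called members could be set against each other by edgeR over 10005 genes, with the sex-call genes left out. Of these 15 (0.15%) differed, 5 higher in female (0.05%) and 10 in male cells (0.1%). Scg5, a secretory chaperone, was at 81.3, 83.3, 132 and 86.8 CPM in female and 53.3, 56.6, 52.4 and 51.1 in male cells (log2 difference 0.84; edgeR adjusted p = 0.00224). Cebpd and Slc5a3, a transcription factor and the myo-inositol transporter, were also higher in female cells, and their libraries did not overlap, as was the case for 2.72% of all genes. Fxyd2 was higher in male cells in 4 of 4 libraries, at 7112 ± 605 against 5625 ± 839 CPM (log2 difference of female minus male -0.40; edgeR adjusted p = 0.000135). Actg1, Gsta3, Sord and Oxct1 were named on the male side as well. The count depended on the fit. Without the library block 0 genes passed (418 at an unadjusted p under 0.05), DESeq2 called 3, and leaving out 1 library gave 6 (without 12 h) to 26 (without 1 h).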

How the data were processed

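Droplet single-cell RNA sequencing was done on 4 mouse kidney libraries. The authors deposited UMI counts as whole numbers, without normalization, and made them with Cell Ranger 3.1.0, and the submitters' processing notes also name STAR, Seurat and the build mm10. UMIs of the gated cells were summed per library and class, and CPM are these sums over all UMIs of the class, mitochondrial ones included. Classes within the libraries were compared by the quasi-likelihood test of edgeR 4.0.16 (R 4.3.3, TMM scaling) on genes with 20 or more UMIs, with Benjamini-Hochberg adjustment over all genes tested and a threshold of 0.05. Each library entered as a block, since both sums of a library come from the same mice and preparation. Pools of mice differ between libraries, so p-values measure the spread of a class difference over 4 pools at 4 times. DESeq2 1.42.0 was an alternative. Times were compared as CPM ratios with exact conditional intervals (scipy 1.17.1) and no test.

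The text names genes of the gene lists, up to 10 genes each way per class comparison (5 for sex) with the largest log2 difference, an adjusted p under 0.05, a mean of 20 CPM or more in the higher class and the same direction in 4 libraries, and up to 8 each way per time. For times a gene needed 50 or more UMIs and a 2-fold change the same way in female-called and male-called cells, with 0.5 added to each count. Mitochondrial, ribosomal, haemoglobin, immunoglobulin, sex-call, gate and unnamed genes were left out of these choices. The members and the lists were chosen with earlier results of these data known. On simulated counts the edgeR step recovered 45% of 100 genes changed 2-fold and 99% of 100 changed 4-fold for type A against type B. For intercalated against principal cells these shares were 50% and 100%, and for female against male cells 41% and 100%. In the same order, 7, 8 and 3 unchanged genes were called. The changed genes all had 100 or more UMIs and every gene was given the same spread. Recovery of genes with fewer UMIs was thus not measured. Positions are those of GENCODE vM21 for the 30934 of 31053 gene IDs that matched (99.6%). Results of a few genes that met these rules are not reported here.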

Additional observations from a re-analysis of the deposited data

Results flagged for a closer look

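In 9 flagged pairs of a gene and a time, the ratio to 0 h was at least 2-fold up in 1 type summed and at least 2-fold down in the other. These are not all pairs that went opposite ways. Junb at 1 h, for example, was higher in type A and lower in type B, but not past 2-fold in type B. None of these differences between types was tested, and each rests on 1 library per time. Among the immediate early genes, the 12 Egr1 UMIs of type A at 0 h came from 2 cells, 9 of them from 1 cell, and the 87 at 1 h from 19 cells. The type A minus type B difference was 3.18 for Egr1 at 1 h (type A 12 to 87 UMIs, type B 133 to 78), 3.03 for Zfp36 at 1 h (4 to 32 and 39 to 28) and 2.92 for Klf6 at 4 h (7 to 68 and 46 to 50). The signalling phosphatase Dusp1 had a difference of 3.28 at 1 h, and 19 of its 24 UMIs in type A were in 1 cell.

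The others were genes of other cell types, and in type A single cells held most of their UMIs in at least 1 of the libraries compared. In type B the share of the top cell was lower for S100g, with 518 of 1147 UMIs at 0 h and 343 of 834 at 1 h, and for Hsd11b2 at 4 h, with 38 of 87. Hsd11b2 differed by 7.09 at 1 h, with 70 of 73 type A UMIs in 1 cell, and by 3.05 at 4 h, with 29 of 37 in 1 cell. Type A held 0 Hsd11b2 UMIs at 0 h. For the ratio this 0 was set to a floor of 3 UMIs, so the size of both differences depends on that floor. S100g, a calcium-binding protein of the connecting tubule, differed by 4.73 at 1 h, with 1963 of 2345 type A UMIs in 1 cell. The proximal tubule gene Miox differed by -3.59 at 1 h, with 75 of 83 type A UMIs at 0 h in 1 cell. The chemokine gene Ccl5 differed by 8.79 at 4 h, with its type B UMIs at 0 h in 1 cell and its type A UMIs at 4 h in 2 cells. Ccl5 had 0 UMIs in type A at 0 h and 0 in type B at 4 h. The ratios of both types thus rest on the floor of 3 UMIs.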

How the results depend on the processing

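Of the counts and shares, 72 alternative values stayed within their limits and 19 moved; of the values of single genes, 799 stayed, 44 moved, 44 lost their call and 5 reversed. Under the 25% mitochondrial limit the share of intercalated cells was 0.177, 0.327, 1.18 and 0.499% at 0, 1, 4 and 12 h, type A made up 52.9% of typed cells at 1 h, and the calls numbered 396 between types, 2953 against principal cells and 1148 at 4 h. DESeq2 called 524, 2831 and 3 genes between types, against principal cells and between sexes. Leaving out 1 library gave 893 to 1411, 3415 to 4065 and 6 to 26 calls, with 893 without 4 h, and between sexes 25 without 0 h, 26 without 1 h and 6 without 12 h. Without the replicate block, which pairs sums of 1 library, 1176, 4137 and 0 genes were called. With 50 or more UMIs the counts past 2-fold were 87, 221 and 88 at 1, 4 and 12 h. Reversed ratios were those of Egfl7 (-0.13), Anxa2 (-0.064) and Ccl5 (0.48) at 4 h under the 25% limit, Ccl5 in type A alone (2.17), and Egf at 12 h without mixed cells (-0.40). The type A ratio of Ccl5 came from 0 UMIs at 0 h set to a floor of 3 UMIs. The 25% limit left 11 cells at 0 h and single-library leave-outs left 3 pools; other causes were not tested. Time and library cannot be told apart. Depth limits the time comparisons, since 22 type A cells represent 0 h.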

Other observations

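Barcodes that met the marker conditions but had over 50% mitochondrial UMIs were not members. The libraries of 0, 1, 4 and 12 h held 30, 16, 14 and 19 of them. By the exchangers 2, 6, 4 and 1 of them were type A and 27, 10, 10 and 16 type B. The 0 h library thus held 30 such barcodes beside 68 members, and the 4 h library 14 beside 231.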
